A study of Mus musculus with 8 samples.

Results

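In 805 of the 40770 genomic regions that held a peak of open chromatin in any of 8 libraries of BV2 microglial cells, a peak was called in all 4 libraries of cells grown together with GL261 glioma cells and in none of the 4 libraries of cells grown alone. These co-culture-only regions are the members described here. They were found by merging the overlapping peaks of the 8 deposited lists on chromosomes 1 to 19 and X and by asking which lists held a peak sharing at least 1 bp with each merged region. Members made up 1.97 percent of all regions. The reverse pattern, a peak in all 4 monoculture lists and in no co-culture list, was found in 11 regions, or 0.027 percent. Presence in these lists chose the members, so their presence is a description and carries no test.

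BV2 is an immortalized murine microglial line, and GL261 is a murine glioma line that was seeded first and onto which BV2 cells were placed at a ratio of 1:2. The assay was ATAC-seq, which reads out accessible DNA as the places where a transposase can insert sequencing adapters. The 4 groups had 2 biological replicates each: BV2 monoculture in normoxia (21% O2), BV2 monoculture in hypoxia (<0.1% O2), BV2 from co-culture in normoxia and BV2 from co-culture in hypoxia. Co-cultures ran for 24 h before the 16 h at either oxygen level, in medium with 2% FBS. Cells were fixed in formaldehyde and sorted, and 50000 cells entered each reaction. The labels name a sort for CD45+ or GFP+ cells and do not say which of these gates each library went through. How many GL261 cells or how much GL261 chromatin each sorted sample still held was not tested, and libraries of GL261 cells were not analysed here. CD45 is the product of Ptprc, a pan-leukocyte surface protein. A peak lay within 10 kb of Ptprc in all 8 libraries, as it did for 15 of 36 listed microglia and macrophage identity genes, among them Csf1r, Cx3cr1, P2ry12, Trem2 and Runx1. No library had a peak near C1qa, C1qb, C1qc or Sall1 of that list.

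Chromatin opens where transcription factors and remodelers displace nucleosomes. Promoters of widely used genes are open in most cell types, whereas distal elements in introns and between genes differ between cell types and states. Microglia are the resident macrophages of the brain, and glioma cells recruit them and change their gene programs. A peak list records only sites past a caller's threshold, so a site missing from a list can hold reads below it.

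The lists ran from 9903 to 26333 peaks in monoculture and from 21625 to 29647 in co-culture. The typical expected number of fragments at a summit under the peak caller's background, solved from the deposited fold and p-value, was 0.758 to 1.448 in monoculture and 1.072 to 1.424 in co-culture. The shortest lists were those of normoxic monoculture, with 13326 and 9903 peaks, and normoxic co-culture had 21780 and 21816. Regions with a peak in 3 co-culture lists and none in monoculture numbered 983, and regions with a peak in all 4 co-culture lists and in 1 monoculture list numbered 684.

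The 8 promoter sequences below are those of the highest-ranking named members that hold a listed gene start. Each is the 250 bases that precede a start, 5′ to 3′ on the strand of the gene, from RefSeq on GRCm38.p6, the same assembly as mm10. Capitals mark, on either strand, the words TGANTCA (AP-1), CCGGAAGT (ETS), GGGGCGGG (KLF and SP factors, GC box) and CACGTG (the palindromic E-box); these words can overlap other motifs.
Hnrnpf: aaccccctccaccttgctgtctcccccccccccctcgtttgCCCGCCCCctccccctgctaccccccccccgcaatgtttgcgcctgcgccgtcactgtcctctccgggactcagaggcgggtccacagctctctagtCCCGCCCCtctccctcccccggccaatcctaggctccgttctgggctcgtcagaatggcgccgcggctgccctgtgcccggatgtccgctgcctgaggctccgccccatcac
Zfand2a: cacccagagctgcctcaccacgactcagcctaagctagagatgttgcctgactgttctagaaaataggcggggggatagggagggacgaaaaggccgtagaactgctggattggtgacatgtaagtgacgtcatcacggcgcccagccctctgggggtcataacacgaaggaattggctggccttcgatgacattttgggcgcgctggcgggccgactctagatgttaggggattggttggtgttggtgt
Jpt1: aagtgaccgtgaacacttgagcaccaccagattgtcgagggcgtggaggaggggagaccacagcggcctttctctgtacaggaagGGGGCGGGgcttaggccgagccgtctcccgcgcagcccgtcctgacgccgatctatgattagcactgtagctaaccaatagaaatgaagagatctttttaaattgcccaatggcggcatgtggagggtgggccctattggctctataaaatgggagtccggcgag
Mad1l1: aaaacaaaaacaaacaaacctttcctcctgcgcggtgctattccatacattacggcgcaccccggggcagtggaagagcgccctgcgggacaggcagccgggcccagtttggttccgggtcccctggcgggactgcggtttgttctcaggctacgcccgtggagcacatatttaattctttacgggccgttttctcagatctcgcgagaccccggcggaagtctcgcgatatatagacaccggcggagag
Pou3f2: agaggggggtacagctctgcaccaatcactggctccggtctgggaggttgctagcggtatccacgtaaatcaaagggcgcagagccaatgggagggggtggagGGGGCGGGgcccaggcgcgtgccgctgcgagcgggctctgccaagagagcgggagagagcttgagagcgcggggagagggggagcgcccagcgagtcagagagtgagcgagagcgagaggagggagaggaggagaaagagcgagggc
Mafk: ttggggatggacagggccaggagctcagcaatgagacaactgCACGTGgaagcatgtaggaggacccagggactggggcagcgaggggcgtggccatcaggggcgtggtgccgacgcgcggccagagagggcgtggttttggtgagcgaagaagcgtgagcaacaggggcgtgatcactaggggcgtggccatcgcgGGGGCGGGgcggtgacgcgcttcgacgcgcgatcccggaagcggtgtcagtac
Ppp4c: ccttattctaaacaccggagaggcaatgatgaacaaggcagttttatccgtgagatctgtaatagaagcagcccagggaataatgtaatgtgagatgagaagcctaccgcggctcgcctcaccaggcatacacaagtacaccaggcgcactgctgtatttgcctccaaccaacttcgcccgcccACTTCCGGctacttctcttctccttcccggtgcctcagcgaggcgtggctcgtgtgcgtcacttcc
Tnfaip3: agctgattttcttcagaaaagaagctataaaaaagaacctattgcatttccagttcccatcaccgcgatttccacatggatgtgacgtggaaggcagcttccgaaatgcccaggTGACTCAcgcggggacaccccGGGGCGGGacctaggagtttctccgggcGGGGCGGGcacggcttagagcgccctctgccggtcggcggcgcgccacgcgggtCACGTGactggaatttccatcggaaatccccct
Hnrnpf is read from chr6:117906532-117906781 on the plus strand, Zfand2a from chr5:139484492-139484741 on the minus strand and Jpt1 from chr11:115514394-115514643 on the minus strand. Mad1l1 is read from chr5:140321553-140321802 on the minus strand, and its member also holds the start of Nudt1 on the other strand. Pou3f2 is read from chr4:22488367-22488616 on the minus strand, and Mafk from chr5:139791286-139791535 on the plus strand. Ppp4c is read from chr7:126792548-126792797 on the minus strand, and Tnfaip3 from chr10:19015411-19015660 on the minus strand. The member covered all 250 bases of 6 of these sequences, 174 of those of Hnrnpf and 196 of those of Tnfaip3. Summits lay between 233 bases before the start (Pou3f2) and 86 bases after it (Ppp4c).

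These promoters differed in their content although all belonged to the same class of members. Hnrnpf, which encodes an RNA-binding protein of splicing, had 70.8 percent G and C in the bases shown, 18 CpG dinucleotides and 2 GC boxes. Tnfaip3, which encodes the NF-kB inhibitor A20, held 2 GC boxes, 1 AP-1 word and 1 CACGTG word. Mafk, a small MAF protein that pairs with other bZIP factors, held a GC box and a CACGTG word. Pou3f2, a POU factor of neural progenitors, and Jpt1 each held 1 GC box, and Ppp4c, a phosphatase catalytic subunit, held 1 ETS word. Zfand2a, a zinc finger gene induced by proteotoxic stress, and Mad1l1, a spindle checkpoint gene, held none of the 4 words in the 250 bases shown.

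Promoter windows (250 bases before to 50 after a start) were taken where the start itself lay inside a member, 224 in all. Their base composition was close to that of the 3248 windows whose start lay inside a region open in all 8 libraries. Median G and C content was 61.5 percent in members, 61.3 percent in the regions open in all 8 libraries and 56.7 percent over all 21044 windows of protein-coding genes. The observed over expected CpG ratio had medians of 0.80, 0.81 and 0.57 in the same order. The GC box was in 32.6 percent of members' windows, 34.7 percent of windows in regions open in all 8 and 22.3 percent of all windows. The ETS word was in 12.9, 9.21 and 5.20 percent, and a core CTCF word in 17.9, 12.4 and 9.98 percent. The TEAD word GGAATG was in 14.3, 10.4 and 13.5 percent, and the AP-1 word in 4.02, 4.53 and 7.04 percent. The hypoxia-response words ACGTG or GCGTG were in 65.6, 67.6 and 49.8 percent. The words used for NF-kB and for the extended MAF and BACH site were in no member window, where 0.308 and 0.185 percent of windows open in all 8 held them. These shares describe letters in the windows and have no test. A listed start lay inside 25.7 percent of the members, and these windows leave out the rest.

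Members were peaks of the lower and middle part of each co-culture list. Ranked by −log10 p within its list (a percentile of 100 is the strongest peak), the median member stood at percentile 40.3 and 35.6 in normoxic co-culture replicates 1 and 2 and at 47.1 and 37.5 in hypoxic co-culture replicates 1 and 2. The medians of all 13613 regions with a peak in all 4 co-culture lists were 65.9, 66.1, 72.1 and 64.5. In each library the members spread widely, from a lowest percentile between 0.13 and 1.13 to a highest between 91.4 and 96.4. The median member had 20, 19, 28 and 21 fragments at its summit in the same 4 libraries, and its median fold over background, as deposited, was 6.56, 6.12, 7.37 and 6.75. Of the 805, 93 (11.6 percent) were in the upper part, above percentile 50, of every co-culture list.

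Nearly all members were simple peaks. In 799 of them (99.3 percent) each co-culture list held exactly 1 peak, and the median width was 690 bp (quartiles 578 and 846) beside 988 bp for regions open in all 8 libraries and 615 bp for all regions. Only 2 members were wider than 2 kb; the wider spans 93.7 kb at Gm8094 on chromosome 14, from 43066040 to 43159761. The rule allows no overlap with a monoculture peak, and the median distance to the nearest was 22.7 kb, with a monoculture peak within 1 kb of 17 members and within 10 kb of 224.

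**Figure D1:**
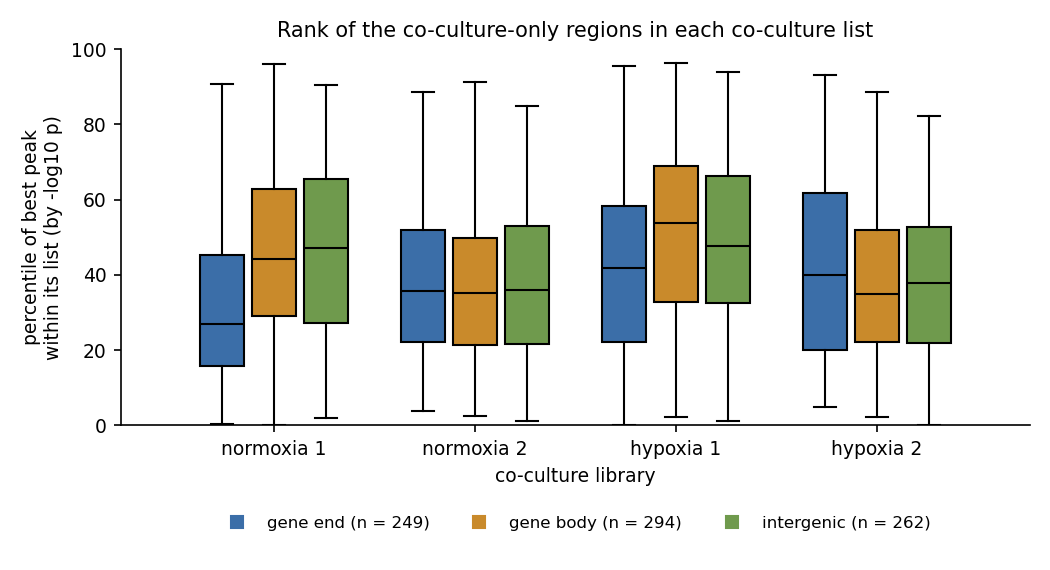
Percentile of each member's best peak within each co-culture list, by −log10 p, for members at gene ends, in gene bodies and between genes. Boxes show the quartiles and the median, and whiskers reach the lowest and the highest member; gene-end members have a lower median than the other classes in normoxia 1 (26.9 against 44.3 and 47.2) and hypoxia 1 (41.7 against 53.7 and 47.8), about the same in normoxia 2 (35.7 against 35.2 and 35.97) and a higher one in hypoxia 2 (40.0 against 34.9 and 37.8).

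The weakest members were close to the callers' threshold, and regions just outside the rule could be strong. The lowest −log10 q among members was 2.08, at a region 53.3 kb from Runx3, followed by regions in or at Axin2 (2.33), 93.7 kb from Zbtb20 (2.44), and at Wdr81 (2.55) and Il6ra (2.60). In all, 21 members had a −log10 q under 3 in at least 1 list. Just outside, a region in Slc2a3, which encodes the glucose transporter GLUT3, ranked between percentiles 85.8 and 95.8 in 3 co-culture lists and had no peak in hypoxic co-culture replicate 2. Regions at Spcs2 and Xrra1, Mccc2, Snx8 and Epb41 likewise missed 1 co-culture list. Regions near Tubb3 and Gsdmc and at Fam214b, Maea and Idh3a had all 4 co-culture peaks and 1 peak in hypoxic monoculture; that peak ranked at percentile 24.5 for Tubb3 and 86.1 for Fam214b.

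Depth sets what a missing peak can mean. When each member's lowest co-culture summit was scaled to the background coverage of a monoculture library, it was at or above the lowest summit called in that library for 722 members (89.7 percent) in normoxic monoculture replicate 1, 780 (96.9 percent) in replicate 2, and 804 and 803 in the hypoxic monoculture replicates. Against the 5th percentile of called summits in each library, the counts were 648, 722, 775 and 770. These values are the low end of the called summits, so reaching them does not show that a member would have been called. The scaling uses background coverage and no other difference between libraries. The remaining members could have been missed in a monoculture library at equal openness, and for them absence was not detectable at this depth. Keeping the same number of peaks in every list, which leaves only the strongest in the longer lists, gave 201 regions of the same pattern, of which 53 came from the 805 members (6.58 percent). The other members fell outside the kept peaks in at least 1 co-culture list, so which regions carry the pattern depends on list length.

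How far the choice depends on each library was described by leaving 1 out. Regions were chosen on 7 libraries by the same rule, and the share with a peak in the 8th was counted. When the library left out was a co-culture one, 74.1, 71.3, 91.9 and 72.4 percent of the regions had a peak in it (normoxia 1 and 2, hypoxia 1 and 2), against 51.7, 51.5, 70.7 and 51.5 percent of all regions. When it was a monoculture one, 7.68, 2.78, 26.8 and 27.1 percent had a peak, against 30.8, 23.1, 57.3 and 62.3 percent of all regions. Co-culture shares were above and monoculture shares below the share over all regions in each of the 8 libraries. The means were 77.4 ± 9.71 percent (SD, n = 4) and 16.1 ± 12.7 percent (SD, n = 4). These shares are made of the calls that chose the members: every region counted for a co-culture library is a member, and those counted for a monoculture library are the regions with 1 monoculture peak. They carry no test.

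By position, members were divided nearly evenly between gene ends, gene bodies and the space between genes. Within 1 kb of either end of a protein-coding gene lay 249 members (30.9 percent, 95% Wilson interval 27.8 to 34.2), inside a gene body 294 (36.5 percent) and between genes 262 (32.5 percent). The corresponding shares over all regions were 24.6, 39.0 and 36.4 percent. Regions open in all 8 libraries were at gene ends in 50.6 percent of cases, and the 849 regions open in all 4 hypoxic and no normoxic library in 8.83 percent. A listed gene start lay inside 207 members (25.7 percent), inside 18.4 percent of all regions and inside 3.65 percent of the hypoxia-only regions. The gene-end share of members moved with the choice of libraries and lists, from 29.1 to 39.0 percent when single libraries were left out and to 60.2 percent in lists of equal number, where all regions stood at 34.8 percent. Exons and introns cannot be told apart with the gene table used.

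The highest-ranking members lay mostly in gene bodies or far from genes. The strongest over all 4 lists was in Myo5b, an unconventional myosin of vesicle transport, at chromosome 18, 74539268 to 74539882, with 56, 51, 83 and 62 summit fragments in normoxia 1, normoxia 2, hypoxia 1 and hypoxia 2. Next came a region in the phosphatase gene Ppm1h (chromosome 10, 122862128 to 122862977), with 66, 71, 75 and 53 fragments. Pdzd2, a PDZ domain gene on chromosome 15, held a pair of them: 12490609 to 12491580 had 87, 63, 83 and 54 fragments, and 12518223 to 12519061 had 63, 45, 110 and 67. All 4 libraries were high at these sites, with no co-culture library below percentile 76.7.

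Chromosome 15 held further strong members. A region in Slc22a22, of the organic ion transporter family, had 75, 51, 81 and 49 fragments (57365968 to 57366860). A region 153 kb from Has2, the hyaluronan synthase gene, had 51, 41, 96 and 55 fragments (56847272 to 56848102). A region in Osmr, the oncostatin M receptor subunit, had 33, 32, 71 and 39 fragments (6849690 to 6850398). In these 3 regions hypoxic replicate 1 had the most fragments of the 4 libraries; it is also the longest co-culture list.

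Of the 20 highest-ranking members, 2 held a listed gene start, those of Hnrnpf and Zfand2a, whose sequences are shown above. Hnrnpf (chromosome 6, 117906608 to 117907161) had 46, 83, 58 and 83 fragments and Zfand2a (chromosome 5, 139484310 to 139484931) had 28, 34, 46 and 54. In gene bodies or at gene ends were also regions in Garem1 (chromosome 18, 21299813 to 21300688), Acss1, the mitochondrial acetyl-CoA synthetase (chromosome 2, 150643907 to 150644474), Dlgap1, a postsynaptic scaffold (chromosome 17, 70633380 to 70634103), Lbh (chromosome 17, 72925732 to 72926543) and Ddc, the aromatic amino acid decarboxylase (chromosome 11, 11851749 to 11852434). Their lowest percentiles over the 4 lists were 71.7, 70.0, 69.1, 68.9 and 68.5. Between genes were regions 26.8 kb from Kcnk16, 25.5 kb from Zc3h15, 136 kb from Car8, 218 kb from the antiproliferative gene Btg1 and, on chromosome 5 at 55355457 to 55355931, 1234 kb from Stim2. A nearest gene is a position and not a target.

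Some members came in runs. In 8 places 3 members followed each other within 100 kb, 55 places held a pair and 671 members stood alone. Hmga2, which encodes an architectural chromatin protein of embryonic and tumor cells, held 3 members on chromosome 10: at 120377322 to 120377929, 120417148 to 120417688 and, over its start, 120476149 to 120477329. Their percentiles ran from 36.7 to 70.5, from 21.6 to 52.3 and from 16.5 to 30.9 over the 4 libraries. The region farthest from the start ranked highest of the 3 in every library. Ppm1h, also on chromosome 10, held 3 members in 51.3 kb, and 3 more lay within 148 kb on the far side of Btg1. On chromosome 11, runs lay at Bahcc1, at the starts of Mrpl58, Armc7 and Jpt1, and at Ccdc137 with Oxld1, Mrpl12 and Arhgdia. The others were at Mad1l1, Nudt1 and Eif3b on chromosome 5 and at Zfp236 and Zfp516 on chromosome 18. Bodies of 35 genes overlapped 2 or more members, and 3 of them (Hmga2, Pdzd2 and Ppm1h) overlapped 3.

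Genes of 12 lists were compared with the members by distance. Over all 21627 protein-coding genes, 775 (3.58 percent) had a member within 10 kb of the gene body. That share grows with gene length and with the number of regions near a gene, so the 5 lists of this paragraph are read beside both. The neural stem, glial and glioma list had 5 of 40 genes near a member (12.5 percent), the mesenchymal and matrix list 6 of 40 (15.0 percent), the Hippo pathway and TEAD list 2 of 16 (12.5 percent) and the TGF-beta and BMP list 3 of 30 (10.0 percent). The microglia and macrophage identity list had 0 of 36, although 32 of its genes had a region of some kind. Median gene lengths were 29.1 kb for the glial list, 33.7 kb for the mesenchymal list, 73.2 kb for the Hippo list and 65.1 kb for the TGF-beta list. They were 13.01 kb for the microglia list and 17.3 kb over all genes. Taken per region, 6 of 117 regions near glial genes (5.13 percent), 6 of 95 near mesenchymal genes (6.32 percent) and 3 of 51 near Hippo genes (5.88 percent) were members. So were 3 of 86 near TGF-beta genes (3.49 percent) and 0 of 105 near microglia genes. The value over all genes was 2.04 percent. The lists were drawn up with earlier results of these data known, the counts are small and no test was run on them.

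**Figure D2:**
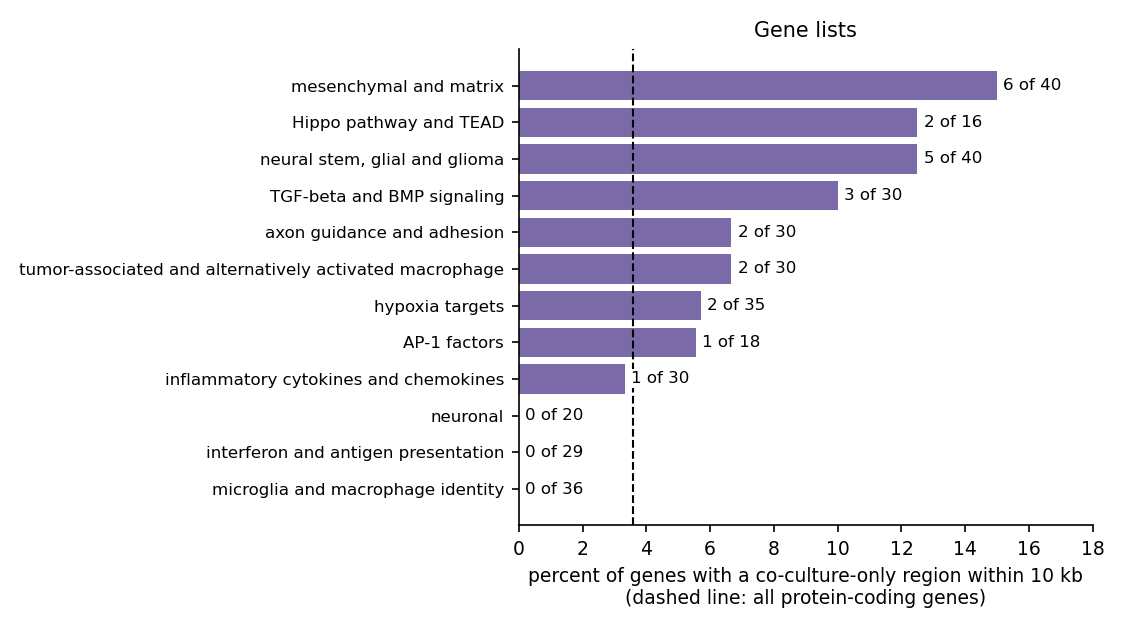
Percent of the genes of each list that have a co-culture-only region within 10 kb of the gene body, with the counts; the dashed line marks the 3.58 percent of all protein-coding genes. The mesenchymal, Hippo and glial lists stand highest, and the neuronal, interferon and microglia lists have no such gene.

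Among the glial genes, Pou3f2 had its member over the gene start (chromosome 4, 22488224 to 22489155), with 17, 23, 21 and 18 summit fragments in normoxia 1 and 2 and hypoxia 1 and 2. Sox6, a SOX factor of glial and cartilage cells, had 1 member at its start and 1 deep in its body (chromosome 7, 115824727 to 115825688 and 115624770 to 115625525). They had 23, 18, 35 and 18 fragments and 15, 14, 32 and 21 fragments. Cdh2, which encodes N-cadherin, had 37, 21, 26 and 22 fragments at chromosome 18, 16713133 to 16714199. Nfia, a nuclear factor I gene of glial development, had 14, 22, 17 and 17 fragments at chromosome 4, 98108716 to 98109294, far from its listed start. The Ncan member lies 8516 bp outside that proteoglycan gene and at the end of Rfxank, with percentiles from 4.63 to 19.3. In rank these members were middling or low, with 73.6 for Cdh2 in normoxia 1 the highest percentile among them.

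More genes of the glial list had peaks in co-culture outside the members as well. Leaving members aside, 15 to 24 of its 40 genes had a peak within 10 kb in co-culture libraries and 5 to 11 in monoculture libraries. These counts are not adjusted for list length, and the share over all protein-coding genes was not taken per library. Per 1000 peaks of a list, 1.86 to 2.67 lay near these genes in co-culture and 1.41 to 1.93 in monoculture, where the groups overlapped. The summed summit fragments of all peaks near glial genes, members included, were 1323 to 2527 in co-culture and 416 to 1777 in monoculture. No peak was near Aqp4, Egfr, Fabp7, Gli2, Id4, Nfib, Olig2, Prom1, Ptprz1, Sox9 or Zic1 in any library. For the mesenchymal list the numbers outside the members were 18 to 28 genes in co-culture and 8 to 24 in monoculture, and for the microglia list 23 to 30 and 17 to 29. The part that chromatin of another cell type takes in the members was not tested.

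The mesenchymal genes near members encode secreted, matrix and contractile proteins. Thbs1 (thrombospondin 1) had a member 52 bp outside its body at chromosome 2, 118110818 to 118111824, with 18, 23, 27 and 26 fragments. Postn (periostin) had 15, 15, 19 and 19 fragments at 217 bp from its listed start (chromosome 3, 54358534 to 54359050). Sparc (osteonectin) had 23, 20, 34 and 24 fragments at 3.68 kb from its start (chromosome 11, 55423759 to 55424292). Lamb1 (a laminin subunit) and Tgfb2 (a TGF-beta ligand) had theirs inside the gene body, and both had more fragments in normoxia, with 28, 33, 17 and 17 for Lamb1 and 27, 32, 19 and 13 for Tgfb2. The Cnn1 member is 7714 bp from that calponin gene and sits at the start of Elof1.

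Members near signaling genes were mostly inside gene bodies. Of the Hippo list, Vgll4, a cofactor that competes for TEAD factors, held a pair of members on chromosome 6 (114882786 to 114883675 and 114921441 to 114922446), and Amotl2, an angiomotin family member that binds YAP, held 1 on chromosome 9 (102723873 to 102724420) with 26, 22, 41 and 21 fragments. Besides Tgfb2, the TGF-beta list had Acvr1, a type I receptor for BMPs and activins, with 13, 16, 28 and 14 fragments, and Smad7, an inhibitory SMAD, with 34, 35, 44 and 26. The axon guidance list had Unc5c, a netrin receptor, and Sema6a, a transmembrane semaphorin. In Vgll4, Amotl2, Acvr1, Smad7 and Unc5c hypoxic replicate 1 had the most fragments, and in Sema6a normoxic replicate 1 did.

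The immune lists had 0 to 2 genes near members, beside the 3.58 percent of all genes. The tumor-associated macrophage list had 2 of 30 (6.67 percent): Mertk, a receptor tyrosine kinase for apoptotic cell uptake, with 12, 11, 30 and 16 fragments inside the gene (chromosome 2, 128796349 to 128796998), and Mmp14, a membrane metalloproteinase, with 19, 14, 15 and 21 at 6650 bp from the gene. The inflammatory list had 1 of 30 (3.33 percent), Tnfaip3, whose start region (chromosome 10, 19014516 to 19015606) had 18, 21, 18 and 36 fragments. The AP-1 list had 1 of 18 (5.56 percent), Mafk, with 21, 30, 34 and 39 fragments. Taken per region, 2 of 96 near tumor-associated macrophage genes (2.08 percent), 1 of 63 near inflammatory genes (1.59 percent) and 1 of 57 near AP-1 genes (1.75 percent) were members. The value over all genes was 2.04 percent. The interferon and antigen presentation list had 0 of 29 and the neuronal list 0 of 20, of which 7 had a region of any kind. The hypoxia list had 2 of 35: Pfkp, the platelet type phosphofructokinase, with 23, 30, 36 and 34 fragments near its start, and Aldoa, whose member is at the start of the neighbouring Ppp4c. In lists of equal number 3 list genes lay near a region of the pattern, Cxcl16, Ddit4 and Tubb3, and none of the 23 named above did. Scaling all libraries to the lowest background coverage gave 22 list genes, with 4 of 40 glial and 6 of 40 mesenchymal genes.

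The difference between oxygen levels over all members was not larger than the spread between replicates. The mean of the median percentiles was 42.3 ± 6.80 (SD, n = 2) in hypoxic and 38.0 ± 3.35 (SD, n = 2) in normoxic co-culture, a difference of 4.35 points with p = 0.667 in a two-sided exact permutation test, in which 2 against 2 libraries cannot go below 0.333. Over all 13613 regions with 4 co-culture peaks the difference was 2.29. Both hypoxic libraries ranked a member above both normoxic ones in 234 cases (29.1 percent), where 30.2 percent of all such regions did so, and below in 148 (18.4 percent), where 23.8 percent did. Without hypoxic replicate 1, the longest co-culture list, the difference was −1.43, the other way round. At gene ends the difference was 9.55 points, in gene bodies 4.57 and between genes 1.204. Over all regions of each class with 4 co-culture peaks it was 3.85, 1.66 and 0.46 in the same order. At gene ends 95 of 249 members ranked above in both hypoxic libraries (38.2 percent) and 39 below (15.7 percent). Of all gene-end regions with 4 co-culture peaks, 36.1 percent ranked above and 24.0 percent below.

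Single members nevertheless ranked apart by oxygen level in all 4 libraries. The following were chosen after their values were seen, from the 6 most separated in either direction. A region in Mast3 stood at percentiles 29.1 and 8.79 in normoxia and 94.6 and 74.8 in hypoxia, with 23, 18, 113 and 65 fragments. A region at an end of the ribosomal protein gene Rpl3 had 26, 23, 71 and 82 fragments, and the start of Anapc2, a subunit of the anaphase-promoting complex, had 14, 12, 39 and 57. In the other direction, a region 159 kb from Gsdmc had 32, 27, 14 and 9 fragments, and the Tgfb2 member stood at percentiles 67.2 and 64.6 in normoxia and 31.1 and 20.4 in hypoxia.

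Members were not spread evenly over the chromosomes. They made up 4.36 percent of the merged regions on chromosome 18 (52 of 1193), 3.96 percent on chromosome 10 (70 of 1766) and 3.10 percent on chromosome 11 (77 of 2485), beside 1.97 percent of all regions, and 1.12 percent on chromosome 8 and 1.01 percent on chromosome 19. Chromosomes 10, 11 and 18 together held 199 members (24.7 percent) and 13.4 percent of all regions. On chromosome 10 the share was high both at gene ends (4.81 percent) and elsewhere (3.65 percent), and on chromosome 18 mainly away from gene ends (4.48 percent, against 3.86 percent at them). On chromosome 11 it was higher at gene ends (4.50 percent) than elsewhere (2.41 percent). In lists of equal number, the share of regions with this pattern was 1.34 percent on chromosome 18, 2.44 percent on chromosome 10 and 2.00 percent on chromosome 11. Over all chromosomes it was 1.02 percent in that setting. Chromosomes were examined after the counts of members by chromosome had been seen.

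**Figure D3:**
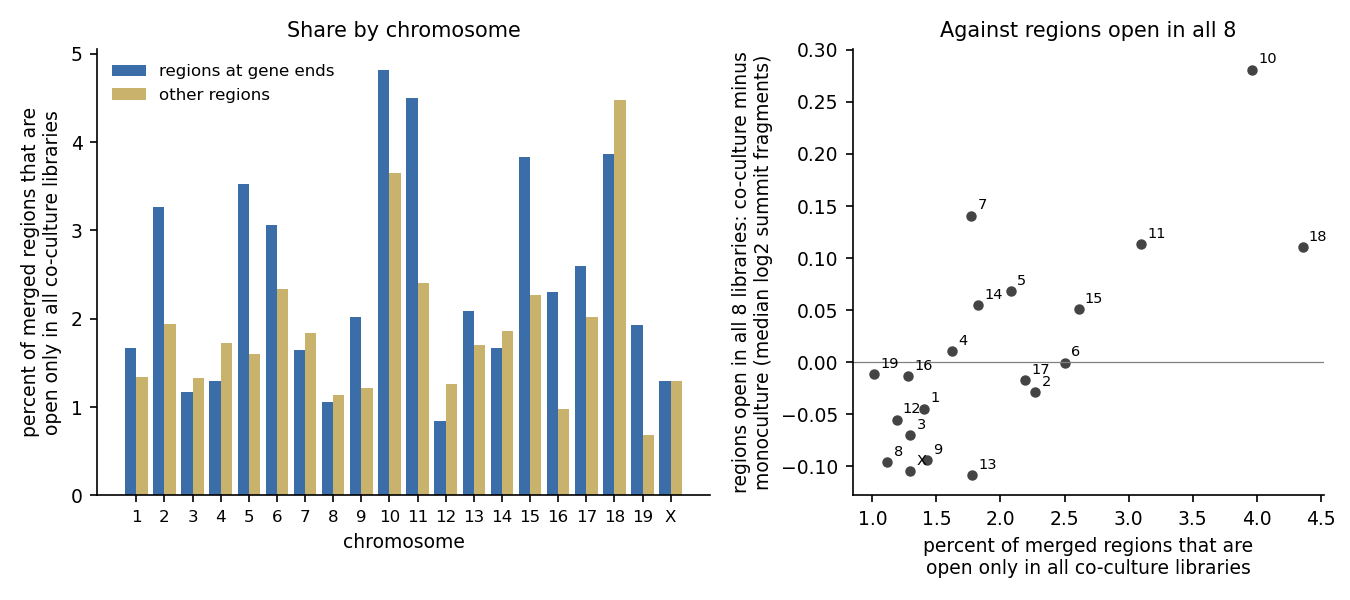
Left, percent of the merged regions of each chromosome that are co-culture-only, at gene ends and elsewhere; chromosomes 10, 11 and 18 stand highest. Right, that percent over both classes for each of the 20 chromosomes against the difference, co-culture minus monoculture, in relative log2 summit fragments of regions open in all 8 libraries; chromosome 10 stands highest on the vertical axis, at 0.28.

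Chromosomes were then compared in regions that were open in every library and so are not members. For the 6372 regions with a peak in all 8 libraries, summit fragments were taken on the log2 scale relative to each library's median over these regions. On chromosome 10 (182 such regions) the median was −0.40 and −0.34 in normoxic monoculture, −0.37 and −0.43 in hypoxic monoculture, −0.07 and −0.05 in normoxic co-culture and −0.13 and −0.16 in hypoxic co-culture. All 4 co-culture libraries were above all 4 monoculture libraries, by 0.28 on average. The value was 0.11 for chromosome 18 (0.14 for chromosome 7), again with no overlap, and 0.11 for chromosome 11. On chromosome 11 the direction depended on oxygen: co-culture stood above monoculture in hypoxia (−0.03 and 0.09 against −0.22 and −0.20) and slightly below it in normoxia (−0.07 and −0.08 against −0.06 and −0.06). On chromosome 8 every co-culture library was below every monoculture library (−0.10). On the other 16 chromosomes the groups overlapped. The two-sided exact permutation p within oxygen levels was 0.0556, the smallest possible, for 9 of the 20 chromosomes, these 4 included, and 0.12 for them after Benjamini-Hochberg adjustment over all 20. Chromosome 11 had p = 0.333 in the same exact test.

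**Figure D4:**
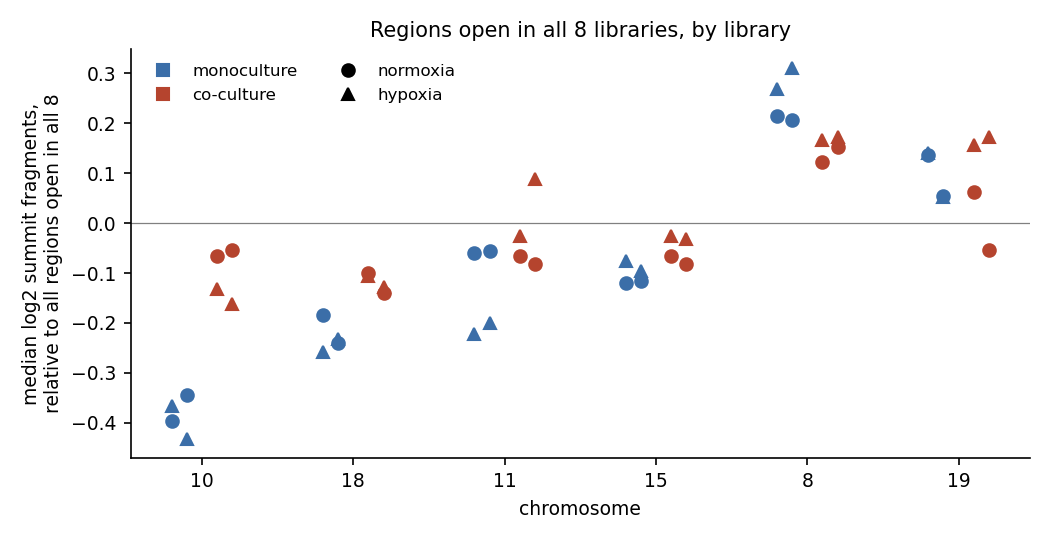
Median log2 summit fragments of the regions open in all 8 libraries, relative to each library's median over all such regions, for the 4 chromosomes with the highest and the 2 with the lowest share of co-culture-only regions. Each point is a library; on chromosomes 10 and 18 the co-culture points lie above all monoculture points, and on chromosome 8 below them.

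Region by region, 24.7 percent of the regions open in all 8 libraries on chromosome 10 and 16.0 percent on chromosome 18 were higher in every co-culture than in every monoculture library, beside 7.67 percent over all chromosomes. The share was 15.2 percent on chromosome 15 and 9.73 percent on chromosome 11. Lower in every co-culture library were 3.30 percent on chromosome 10, 5.30 percent on chromosome 15, 9.28 percent on chromosome 18, 8.92 percent on chromosome 11 and 9.23 percent on chromosome 8, beside 8.49 percent over all chromosomes and at most 11.7 percent, on chromosome 3. Outside the members, chromosome 10 also held 3.999 to 4.29 percent of the peaks of each co-culture list and 2.80 to 3.85 percent of each monoculture list, and chromosome 11 held 6.003 to 6.77 and 5.57 to 5.94 percent. Peaks of chromosome 18 took 2.69 to 2.91 and 2.74 to 2.87 percent and overlapped. Across the 20 chromosomes, the share of regions that were members went with the shift in regions open in all 8 (Pearson's r 0.75, Spearman's rho 0.62). These are points of 1 set of 8 libraries, so no p is given. Without chromosomes 10 and 18, r was 0.59 and rho 0.51 over 18 chromosomes. Over 227 windows of 10 Mb the relation was weak (r 0.24, rho 0.26), and weaker with each chromosome's mean taken away (r 0.14, rho 0.14). The source of these shifts by chromosome was not tested. Without chromosomes 10, 11 and 18 there were 606 members, with 18 list genes near them.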

How the data were processed

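ATAC-seq peak lists of 8 BV2 libraries (4 groups, 2 biological replicates each) were used as deposited. The submitters' processing notes name Trimmomatic 0.36, HISAT2 2.1.0, Picard, SAMtools, deepTools, MACS2 2.1.1.2 and the mm10 build, without settings. The authors' narrowPeak lists give for each peak its position, a score, the fold enrichment (a ratio) at the summit, −log10 p and −log10 q values, and the summit's offset, as the deposited columns show. No deposited list held a −log10 q under 2.00, and peaks of the 8 libraries were listed separately. Each list was used whole on chromosomes 1 to 19 and X.

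Overlapping peaks of all lists were merged (Python 3.11.15, pandas 2.3.3, numpy 2.4.6), and a library had a region if a peak shared 1 bp with it. Summit fragments and expected background were solved from the fold and the Poisson p, as whole fragments; for every library at least 99.98 percent of solved peaks returned the deposited −log10 p within 0.001, and peaks with −log10 p above 250 were not solved. These are fragments at a summit, not library totals: total read depth is unknown. The Wilson interval covers counting error only.

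Genes and promoter windows came from RefSeq on GRCm38.p6. The promoter table held starts of 17273 of 21627 protein-coding genes (79.9 percent) and none on chromosome 18, so position was taken from either gene end. A genome sequence was not used here, so words were searched in promoter windows and not in all regions as planned. The 12 gene lists and 19 words were searched as written.

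Groups were compared over libraries with exact permutation tests (scipy 1.17.1), two-sided. The members and the lists were chosen with earlier results of these data known. The text names the 20 members with the highest lowest percentile, list genes with a member within 10 kb, runs of 3 or more, the 5 members of lowest −log10 q and the 5 regions just outside on either side; sequences are the highest-ranking named members holding a listed start. Of the 20 members, 1 is not reported here. Alternatives covered the q threshold, list length, depth, how regions are drawn and shared, distances, the replicate block and each library left out. On simulated lists, 100 of 100 planted regions were recovered.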

Additional observations from a re-analysis of the deposited data

Results flagged for a closer look

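Chromosome Y lies outside the rule that chose the members. It held 1 region with a peak in all 4 co-culture and in no monoculture library, at 90808446 to 90808983, with percentiles between 8.78 and 19.9 over the co-culture lists. It was picked out as a signal in data that the comparisons do not use.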

How the results depend on the processing

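The number of co-culture-only regions kept within 1.5 times of 805 under every alternative but lists of equal number, which gave 201; single libraries left out gave 828 to 1130, and peaks with a −log10 q of at least 5 gave 743, of which 635 were among the 805. The share at gene ends, 30.9 percent, moved to 60.2 percent in lists of equal number, 35.5 percent after scaling to the lowest background coverage, 27.2 percent where a peak had to cover 50 percent of the region and 39.5 percent at 5 kb; with listed gene starts, an alternative added after seeing the data, it was 27.6 percent. It ran from 29.1 to 39.0 percent over the libraries left out, and all regions stood at 24.6 to 25.7 percent then. The number of list genes near members, 23, was 3 in lists of equal number and 48 at 50 kb, and 23 to 33 over the libraries left out. The hypoxic minus normoxic difference, 4.35, was −1.43 without co-culture hypoxia replicate 1 and 8.61 at the most over the libraries left out; the other alternatives kept its direction, and the exact permutation test cannot reach 0.05 under any of them. With the replicate block, the difference within replicate numbers was 6.80 and 1.91, again 4.35 on average, with p = 0.5 in the exact sign test, the smallest that 2 pairs allow; the labels do not say that replicate numbers pair libraries. Leaving out chromosome 10, alone or with chromosomes 11 and 18, the counts of each list by setting and percentiles in place of fragments were also added after seeing the data. Without chromosome 10 there were 735 regions. With percentiles, the regions open in all 8 libraries were higher in every co-culture library on chromosomes 7, 10, 11 and 18 and lower on chromosomes 2, 8 and 17. The cause of these movements was not tested, apart from equal-number lists, which hold fewer peaks. After scaling, the fewest members reached the lowest called summit in normoxic monoculture, 722 and 780 in replicates 1 and 2, where the lists are shortest. Background coverage and list length did not go together there: replicate 1 had 0.758 and 13326 peaks, and replicate 2 had 1.034 and 9903. The reason for the short lists was not tested.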

Other observations

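Among other genes with more than 1 member inside the body were Mbp, which encodes myelin basic protein, Adgrg6, an adhesion G protein-coupled receptor of myelinating cells, and Chst11, a chondroitin sulfotransferase; each held 2. They were chosen after their values were seen. Long genes can hold several members by their length, and Anks1b, at 1100 kb, and Ntm, at 969 kb, also held 2 each. So did short genes, among them Stoml2, at 4.29 kb, Pigo, at 10.1 kb, and Hgs, at 16.4 kb.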
